A study of Mus musculus with 19 samples.

Results

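Kinesins are motor proteins that use ATP to move along microtubules, and the genes described here are those whose RefSeq symbol is Kif with a number and an optional letter, or Klc with a number, the name of the light chains. Of 42 such genes in the RefSeq table used, 41 had a probe on the array and 35 had a probe well above background on at least 6 of the 19 arrays. These 35 are the kinesin genes of this report, among 25599 genes tested in all. They were grouped by known role into 15 transport motors, 4 light chains, 7 mitotic motors, 5 ciliary motors and 4 other kinesins. The 6 genes with a probe that did not reach the limit were Kif2b, Kif2c, Kif15 and Kif18a, seen on 0 arrays, and Kif11 and Kif24, seen on 1 array each. Kif28 had no probe. Just inside the limit lay Kif4 and Kif12, each on 10 arrays, and Kif20b on 11.

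The mice were wild-type (WT) littermates and APP/PS1 mice, a transgenic strain in which mutant amyloid precursor protein and presenilin genes, driven by a prion protein promoter that is active in neurons and other cells, lead to amyloid plaques. All were 8 months old, and RNA came from hippocampal tissue. WT mice given vehicle (n = 6) and APP/PS1 mice given vehicle (n = 7) received DMSO by gavage, and the remaining APP/PS1 mice received urolithin A (UA, n = 6), a metabolite that gut bacteria make from plant ellagitannins, at 200 mg per kg per day in DMSO from 6 to 8 months of age. DMSO was therefore common to all groups, and no WT mice on UA were analysed here.

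In neurons, kinesins carry vesicles, mitochondria and receptors outward along the axon and into dendrites, and light chains and adaptors choose the cargo of the conventional kinesin-1 motor. A separate set of kinesins builds the spindle and divides the cell in mitosis, a process that is rare in tissue made mostly of cells that no longer divide. Others work in cilia, which in the adult brain are long and motile on ependymal cells.

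The 75th percentile of the processed signal, by which each array was scaled, ran from 663 to 1776, with 51.4% to 59.4% of probes well above background and correlations of 0.949 to 0.993 between arrays over genes. Of 3 slides, the first carried all 6 WT arrays beside 2 from APP/PS1 vehicle mice. The other 5 vehicle arrays shared slide 2 with 3 UA arrays, and the last 3 UA arrays were alone on slide 3. The labels do not give sex, which Xist and 4 Y-linked genes showed to be female in 3 of 7 APP/PS1 vehicle mice but in 1 of 6 mice of either other group. All 8 neuron markers were well above background on all 19 arrays. The 12 choroid plexus markers, genes of a tissue beside the hippocampus, split the arrays instead: their mean log2 level ran from -4.59 to -1.02 on 9 arrays and from 1.61 to 3.35 on 10. The high set held 5 of 7 APP/PS1 vehicle arrays and 4 of 6 from UA mice but only 1 of 6 from WT mice, replicate 3, so the markers were unevenly spread over the groups. In bulk tissue, fewer cells of a type and less RNA per cell cannot be told apart.

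Levels are given on a log2 scale, relative to the 75th percentile of each array, so that 0 is a fairly bright spot and a step of 1 is a doubling. Probes differ in brightness, so levels are compared between arrays for the same gene and not between genes. All 15 transport motors and all 4 light chains were well above background on all 19 arrays. Of the 7 mitotic motors 3 were, and of the 12 mitotic kinesins on the list 5 did not pass the limit at all. Of the 5 ciliary motors 3 were on all arrays. Among the dim genes Kif4 was well above background on 4 of the 6 arrays of WT mice, 3 of the 7 of APP/PS1 vehicle mice and 3 of the 6 of UA mice, and Kif20b on 3, 4 and 4. None of the members' probes was saturated on any array.

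Averaged over the list, the 15 transport motors lay close together between groups, though single members differed in both directions. Their mean level was 2.99 ± 0.07 (SD, n = 6) in WT, 2.94 ± 0.14 (n = 7) in APP/PS1 vehicle and 2.94 ± 0.06 (n = 6) in UA mice. The 7 mitotic motors had mean levels of -3.81 ± 0.13, -3.83 ± 0.15 and -3.77 ± 0.09 in the same order. The ranges of the 3 groups overlapped for both lists. In the same arrays the 17 measured dividing-cell markers averaged -2.27 ± 0.10 for WT, -2.21 ± 0.09 for APP/PS1 vehicle and -2.24 ± 0.04 for UA mice. The 8 neuron markers were at 5.68 ± 0.10, 5.43 ± 0.14 and 5.53 ± 0.13. APP/PS1 vehicle replicate 3 had the lowest mean of the transport motors, 2.64, and also the lowest choroid plexus level of all arrays.

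**Figure D1:**
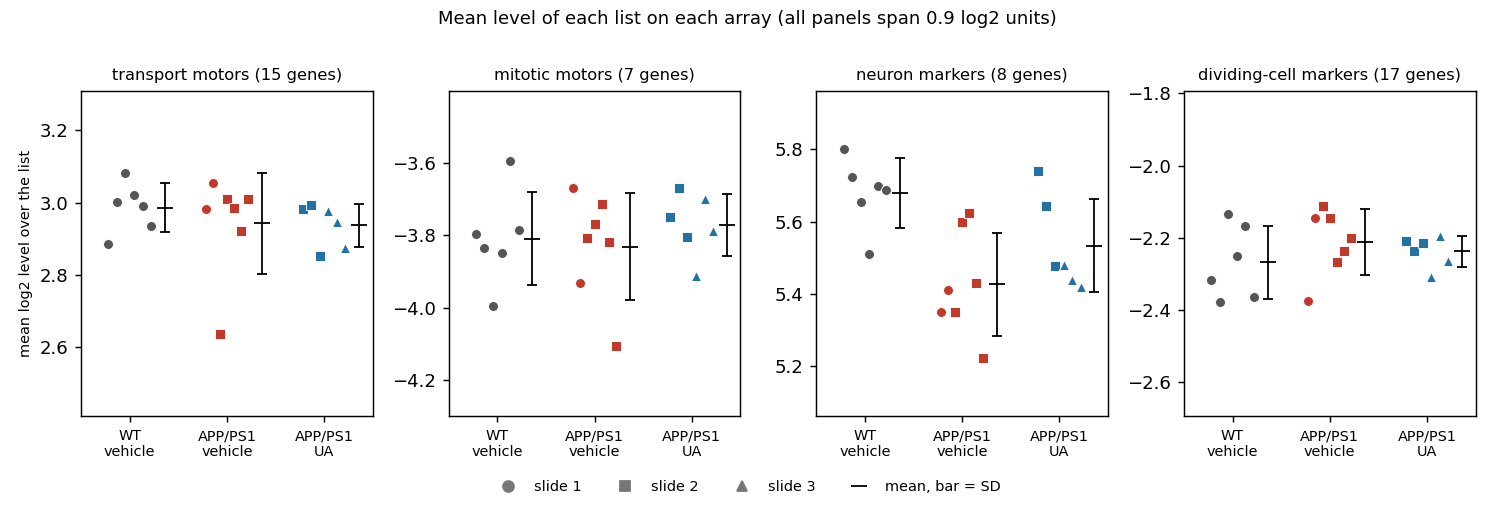
Mean log2 level of 2 kinesin lists and 2 marker lists on each array, by group (x axis), with marker shape for the slide and mean ± SD beside the points. The transport motors sit near 2.9 to 3.1 on nearly all arrays, with APP/PS1 vehicle replicate 3 at 2.64, and the mitotic motors spread over the same range in all groups.

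The start regions of the contrasted motors are shown for 4 genes, 2 transport and 2 mitotic, as examples of the sequences searched. RefSeq windows of build GRCm38.p6 were found for 28 of the 35 genes, and the 250 bases before the annotated start were searched on both strands. The motifs were GGGCGG (the GC box), CCAAT (the box read by NF-Y), TTTGAA (the core of the cell cycle homology region) and GTTGCC (the start of the X-box read by RFX factors). Capitals mark matches on either strand, and sequences run 5′ to 3′ along the gene. Kif3c (chr12:3364882-3365131, + strand) and Kif3a (chr11:53567119-53567368, + strand) are kinesin-2 transport motors, and Kif22 (chr7:127042421-127042670, - strand) and Kif4 (chrX:100625815-100626064, + strand) are chromosome-bound mitotic motors.
Kif3c: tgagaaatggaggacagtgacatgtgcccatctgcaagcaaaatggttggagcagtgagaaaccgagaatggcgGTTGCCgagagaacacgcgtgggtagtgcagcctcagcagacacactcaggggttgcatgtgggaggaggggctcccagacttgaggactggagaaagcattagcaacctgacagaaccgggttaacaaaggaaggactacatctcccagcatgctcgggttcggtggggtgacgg
Kif3a: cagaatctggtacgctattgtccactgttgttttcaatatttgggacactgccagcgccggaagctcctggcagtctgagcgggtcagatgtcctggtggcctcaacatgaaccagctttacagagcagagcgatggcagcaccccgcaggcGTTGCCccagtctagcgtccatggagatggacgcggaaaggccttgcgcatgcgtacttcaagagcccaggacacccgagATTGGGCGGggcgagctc
Kif22: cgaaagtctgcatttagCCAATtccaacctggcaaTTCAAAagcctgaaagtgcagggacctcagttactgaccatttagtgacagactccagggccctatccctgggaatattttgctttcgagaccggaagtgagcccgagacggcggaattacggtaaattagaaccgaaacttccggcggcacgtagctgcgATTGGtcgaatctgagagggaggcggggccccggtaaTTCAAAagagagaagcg
Kif4: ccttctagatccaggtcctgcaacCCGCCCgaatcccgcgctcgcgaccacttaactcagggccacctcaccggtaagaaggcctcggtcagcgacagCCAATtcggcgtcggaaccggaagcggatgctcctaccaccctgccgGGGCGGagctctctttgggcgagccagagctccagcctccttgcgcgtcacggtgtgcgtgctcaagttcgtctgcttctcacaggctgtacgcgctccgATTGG
In Kif3c the single match was to GTTGCC, at bases -176 to -171 relative to the start. In Kif3a a CCAAT match on the other strand overlapped a GC box close to the start. Kif22 held 2 CCAAT and 2 TTTGAA matches, and Kif4 held 2 CCAAT and 2 GC box matches. CCAAT was found in 5 of 6 mitotic windows and in 3 of 11 transport windows, against 34.2% of 27025 genes with a window. TTTGAA was in 2 of 6 and 1 of 11 of these windows, against 16.3% of all genes, and the GC box in 4 of 6 and 7 of 11, against 32.7%. GTTGCC was in 1 of 6 and 4 of 11, against 10.5% of all genes, and in 0 of 4 ciliary windows. Overlaps were between neighbouring matches, of which Kif2a had 4 among its 9 GC boxes. The median GC content was 61.8% in mitotic, 66.4% in transport and 52.0% in all windows. A match describes these letters only.

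The comparison of APP/PS1 vehicle with WT vehicle mice asks what the transgenes change in the motor genes. Kif3c, the neuronal partner subunit of Kif3a in kinesin-2, was lower in APP/PS1 mice. It was the only one of the 35 genes called at an adjusted p under 0.05, that is 2.86% of the members, when 5.06% of all genes tested were called in either direction and 2.29% were called lower. Its level ran from 3.50 to 3.72 with a median of 3.62 over the 6 WT arrays, and from 3.03 to 3.58 with a median of 3.33 over the 7 APP/PS1 vehicle arrays. All 7 APP/PS1 vehicle arrays lay below the WT mean, and the ranges overlapped at the top of the APP/PS1 vehicle arrays. The difference was -0.28 on the log2 scale (SE 0.08), a level 1.22-fold lower, with a limma adjusted p of 0.0392. The call was narrow. The adjusted p ran from 0.014 to 0.457 over 26 alternatives and stayed under 0.05 in 10 of them, and leaving out any 1 of APP/PS1 vehicle replicates 1, 2, 6 or 7 or WT replicates 1, 2, 4, 5 or 6 ended the call. With the slide as a block the difference was -0.33 with an adjusted p of 0.204, and on slide 1 alone it was also -0.33 with an adjusted p of 0.149. The slide 1 value sets 2 APP/PS1 vehicle arrays against all 6 WT arrays. The 3 kept probes of Kif3c did not run 1 way: the others gave -0.24 and 0.23, and the mean of all 3 gave -0.10.

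Kif3a, the common subunit of heterotrimeric kinesin-2, had the next smallest p. Its level ran from 3.58 to 4.12 with a median of 4.08 in WT and from 3.52 to 3.88 with a median of 3.73 in APP/PS1 vehicle mice. The ranges overlapped because of 1 array, WT replicate 3 at 3.58, and the 5 other WT arrays were all at or above 4.01. The difference was -0.30 (SE 0.09, limma adjusted p = 0.0565), and another probe of the gene gave -0.34. Without WT replicate 3, which was also the WT array with high choroid plexus markers, the difference was -0.39 and passed the threshold, as it did without APP/PS1 vehicle replicate 5 (-0.34). It also passed with sex as a covariate (-0.34, adjusted p = 0.0264), and with the slide as a block it was -0.46 (adjusted p = 0.132). Kif3b, the partner of Kif3a in most other cells, differed by -0.04 (95% interval -0.24 to 0.16). Kif17, the homodimeric kinesin-2 that carries NMDA receptors into dendrites, differed by -0.03 (-0.36 to 0.31).

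Among the kinesin-1 heavy chains, none passed the test. Kif5a and Kif5c, which are enriched in neurons, differed by -0.09 (95% interval -0.27 to 0.08) and -0.12 (-0.29 to 0.04), and Kif5b, which is expressed in most cells, by 0.14 (-0.08 to 0.36). Their light chains pointed both ways. Klc3 differed by 0.43 (limma adjusted p = 0.142) and Klc4 by 0.14 (adjusted p = 0.204), with all 7 APP/PS1 vehicle arrays above the WT mean for both, while Klc1 differed by -0.20 and Klc2 by -0.23. For Klc1, the light chain enriched in neurons, the 95% interval ran from -0.47 to 0.08.

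The kinesin-3 motors gave the widest spread among transport motors. Kif1c, a motor of dense core vesicles and of traffic near the Golgi, had the highest difference of all 35 genes, 0.46 (SE 0.15, limma adjusted p = 0.0774), with a WT mean of 1.20 ± 0.31 (SD, n = 6) and an APP/PS1 vehicle mean of 1.66 ± 0.31 (n = 7). All 7 APP/PS1 vehicle arrays were above the WT mean, but WT replicate 3 at 1.75 was higher than 4 of them. Another probe of the gene gave -0.04. Kif1a, the carrier of synaptic vesicle precursors, differed by -0.30 (adjusted p = 0.164), and its other kept probe gave 0.11. Kif1b differed by -0.09, Kif13a by 0.14, Kif13b by 0.32 and Kif16b, a motor of early endosomes, by -0.10, all without passing the test. The kinesin-4 motors Kif21a and Kif21b differed by -0.14 and -0.20 (adjusted p = 0.207 for Kif21b), and another probe of Kif21b gave 0.49.

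The mitotic motors ran in both directions and none passed the test. Kif4, a chromokinesin, differed by -0.38 (95% interval -0.75 to -0.02, limma adjusted p = 0.193) and Kif23, the motor of the central spindle complex of cytokinesis, by -0.30 (-0.61 to 0.01, adjusted p = 0.22). Kif14 differed by 0.39 and Kif20b by 0.30, and Kif18b, Kif20a and Kif22 lay between -0.18 and 0.10. The ciliary motors lay between -0.05 for Kif6 and 0.39 for Kif27, with an interval of -0.36 to 1.15 for Kif27, the widest of all members. Kif9 differed by 0.18, and its other kept probes gave 0.17, 0.29 and 1.02 (SE 0.44 for the last, limma adjusted p = 0.181 over probes). Another probe of Kif6 gave 0.11. Of the 4 other kinesins Kif2a, which takes microtubules apart at their ends and limits axon branches, had the smallest p. It differed by -0.21 (adjusted p = 0.115), all 7 APP/PS1 vehicle arrays were below the WT mean, and another probe gave -0.23.

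**Figure D2:**
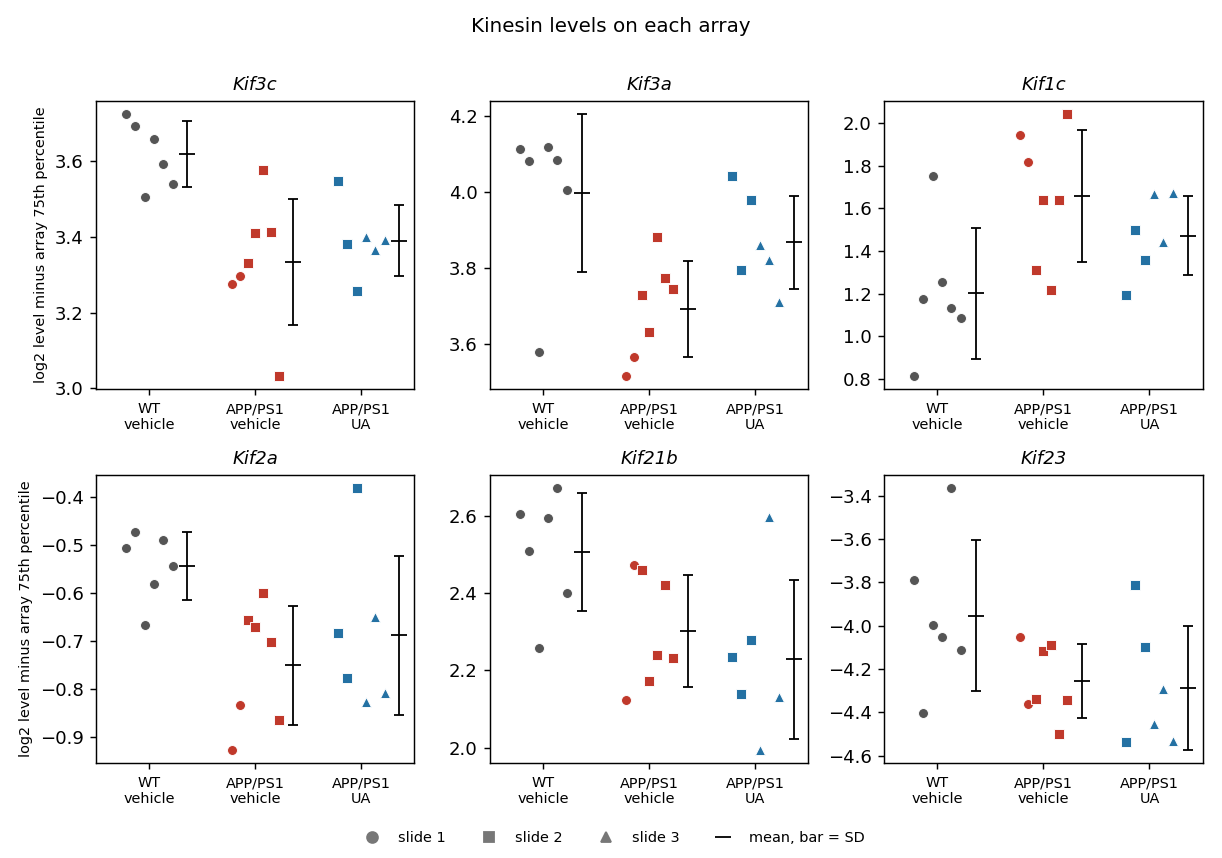
Log2 level on each array, relative to the array's 75th percentile, for 6 kinesin genes in the 3 groups, with marker shape for the slide and mean ± SD beside the points. Kif3c and Kif3a are lower on most APP/PS1 vehicle arrays than on WT arrays, apart from WT replicate 3 at 3.58 for Kif3a, and the ranges overlap in all panels.

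Taken by list, 11 of 15 transport motors were below 0 with a median of -0.09, 4 of 7 mitotic motors were below 0 with a median of -0.07, and 23 of all 35 were below 0 with a median of -0.07. The median was 0.01 over all genes tested and -0.03 over the 16103 with a symbol. An unadjusted p under 0.05 was reached by 9 of the 35 kinesins and by 6077 of the 25599 genes tested, a similar share. The medians of the transport and mitotic lists differed by less than the spread among the members of either, and the difference between the lists was not tested. With normexp background correction, 10 of 15 transport motors were below 0 but 0 of 7 mitotic motors, and the medians became -0.05 and 0.08, when the median of all genes moved to 0.08. Of 19 members with more than 1 kept probe, 8 had all their probes in 1 direction.

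Genes that work with the motors were read from lists of the same pathway. Of 29 measured kinesin adaptors and cargo linkers 5 were lower and 0 higher at an adjusted p under 0.05, when 2.29% of all genes were lower and 5.06% were called in either direction. The median difference was -0.19, against 0.01 over all genes. All genes on these lists have a symbol, and of the 16103 genes with a symbol 454 were lower, with a median of -0.03. Trak1, which links kinesin-1 to mitochondria, fell by 0.24 (limma adjusted p = 0.0269), and Map7d2, which recruits kinesin-1 to microtubules, fell by 0.32 (adjusted p = 0.0323). Clstn1, a membrane cargo receptor that binds light chains, fell by 0.31 (adjusted p = 0.0334), and Kifbp, which binds and holds back several kinesin motor domains, fell by 0.26 (adjusted p = 0.036). The fifth was Madd, a linker of Kif1a and Kif1b to Rab3 vesicles, which fell by 0.28 and was named after its value was seen.

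Cytoplasmic dynein moves the other way along axons, and 3 of its 26 measured subunits and regulators were lower, against 2.29% of all genes. Their median was -0.13, against 0.01 over all genes and -0.03 over those with a symbol. They were Pafah1b1 (Lis1, a dynein activator), which fell by 0.36 (limma adjusted p = 0.0104), the dynactin subunit Dctn1, which fell by 0.25 (adjusted p = 0.0368), and the light intermediate chain Dync1li2, which fell by 0.22 (adjusted p = 0.0435). Of 20 tubulins and microtubule-associated proteins 2 were lower, against the same 2.29%. They were Tuba1b by 0.47 (limma adjusted p = 0.0258) and Dclk1, a doublecortin-like protein of microtubules, by 0.39 (limma adjusted p = 0.0289). The list median was -0.20, against the same 0.01 and -0.03. Of 4 measured kinesins outside the naming rule, among them the minus-end motors Kifc2 and Kifc3, 0 were called. With the slide or the replicate number as a block, 0 members of the adaptor, dynein and tubulin lists were called. The 8 neuron markers were all below 0 with a median of -0.27 and none called, while 5 of 8 microglia and 3 of 6 astrocyte markers were higher, Gfap by 1.01. Of all 25599 genes tested 711 were called higher, and 5.06% were called in either direction. The part of these shifts in the values of the motors and their partners was not tested.

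UA against vehicle within APP/PS1 mice asks whether treatment moves these genes. None of the 35 kinesins was called by limma, as for 0% of all genes tested. An unadjusted p under 0.05 was reached by 0 of the 35 and by 3951 of the 25599 genes tested. With normexp background correction 0 kinesins were called but 1836 of all genes. The differences lay between -0.32 and 0.41 with a median of 0.00, against -0.01 over all genes. The smallest p belonged to Kif3a, whose level in UA mice ran from 3.71 to 4.04 with a median of 3.84, against 3.52 to 3.88 with a median of 3.73 in vehicle mice. All 6 UA arrays were above the vehicle mean and the ranges overlapped widely. The difference was 0.18 (95% interval -0.01 to 0.36, limma adjusted p = 0.356), and another probe of Kif3a gave 0.23.

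Kif26a, a kinesin that lacks ATPase activity, ran from -1.85 to -1.28 with a median of -1.58 in UA and from -2.26 to -1.37 with a median of -1.88 in vehicle mice. The overlap was wide, and the difference was 0.28 (-0.05 to 0.61, limma adjusted p = 0.395). Another kept probe of Kif26a gave 0.01. Kif18b, which shortens astral microtubules in mitosis, ran from -4.14 to -3.72 with a median of -3.80 in UA and from -5.98 to -3.87 with a median of -4.04 in vehicle mice. Its difference of 0.41 (-0.12 to 0.94, adjusted p = 0.432) came with 1 very low vehicle array, replicate 3 at -5.98, the next lowest being -4.14. Without that array it was 0.13 (adjusted p = 0.425 by limma), and with normexp it turned to -0.11. For Kif3c the difference was 0.06 (-0.10 to 0.22), and its other kept probes gave 0.12 and -0.40. Kif1c differed by -0.19 (-0.50 to 0.13), and its other kept probe gave 0.04. These intervals include 0 and do not show that the groups were alike.

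The median difference was 0.00 for the mitotic and for the transport motors, with 8 of 15 transport motors below 0. The intervals of the 35 differences reached from 0.14 on either side for Klc4 to 0.76 for Kif27, and that of the transport motor Kif13b ran from -0.91 to 0.27. No adaptor, dynein, tubulin or marker gene on the lists was called. The adaptor nearest to a call was Arl8b, the lysosome linker, at 0.21 (limma adjusted p = 0.205).

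UA against WT vehicle shares its WT arrays with the genotype comparison and its UA arrays with the treatment comparison, so its values are not independent of either. UA and WT arrays share no slide, and values with the slide as a block rest on the APP/PS1 vehicle arrays that link the slides. None of the 35 kinesins was called by limma, when 0.0898% of all genes were. Unadjusted p under 0.05 was reached by 3 of the 35 and by 2211 of the 25599 genes tested, a similar share. Kif3c ran from 3.26 to 3.55 with a median of 3.39 in UA mice, against 3.50 to 3.72 in WT. Only the highest UA array reached into the WT range, and the difference was -0.23 (SE 0.08, 95% interval -0.39 to -0.06, limma adjusted p = 0.429). The other kept probes of Kif3c gave -0.12 and -0.18. Kif21b, which limits microtubule growth in neurons, ran from 1.99 to 2.60 with a median of 2.19 in UA and from 2.26 to 2.67 with a median of 2.55 in WT mice. Its difference was -0.28 (-0.49 to -0.07, limma adjusted p = 0.454), and of the UA arrays only those at 2.28 and 2.60 reached above the lowest WT array. The other kept probe of Kif21b gave 0.04. Kif23 ran from -4.54 to -3.81 with a median of -4.37 in UA and from -4.40 to -3.36 with a median of -4.03 in WT mice, overlapping for most arrays. Its difference was -0.33 (-0.66 to -0.01, adjusted p = 0.558), and with the slide as a block it was -0.125 (SE 0.29, limma adjusted p = 0.973), with normexp -0.14. With the slide block Kif3c was at -0.29 and Kif21b at -0.30, both with an adjusted p of 0.95. Side by side, Kif3c stood at 3.62 ± 0.09 in WT, 3.33 ± 0.17 in APP/PS1 vehicle and 3.39 ± 0.09 in UA mice, and the medians of Kif3a were 4.08, 3.73 and 3.84.

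**Figure D3:**
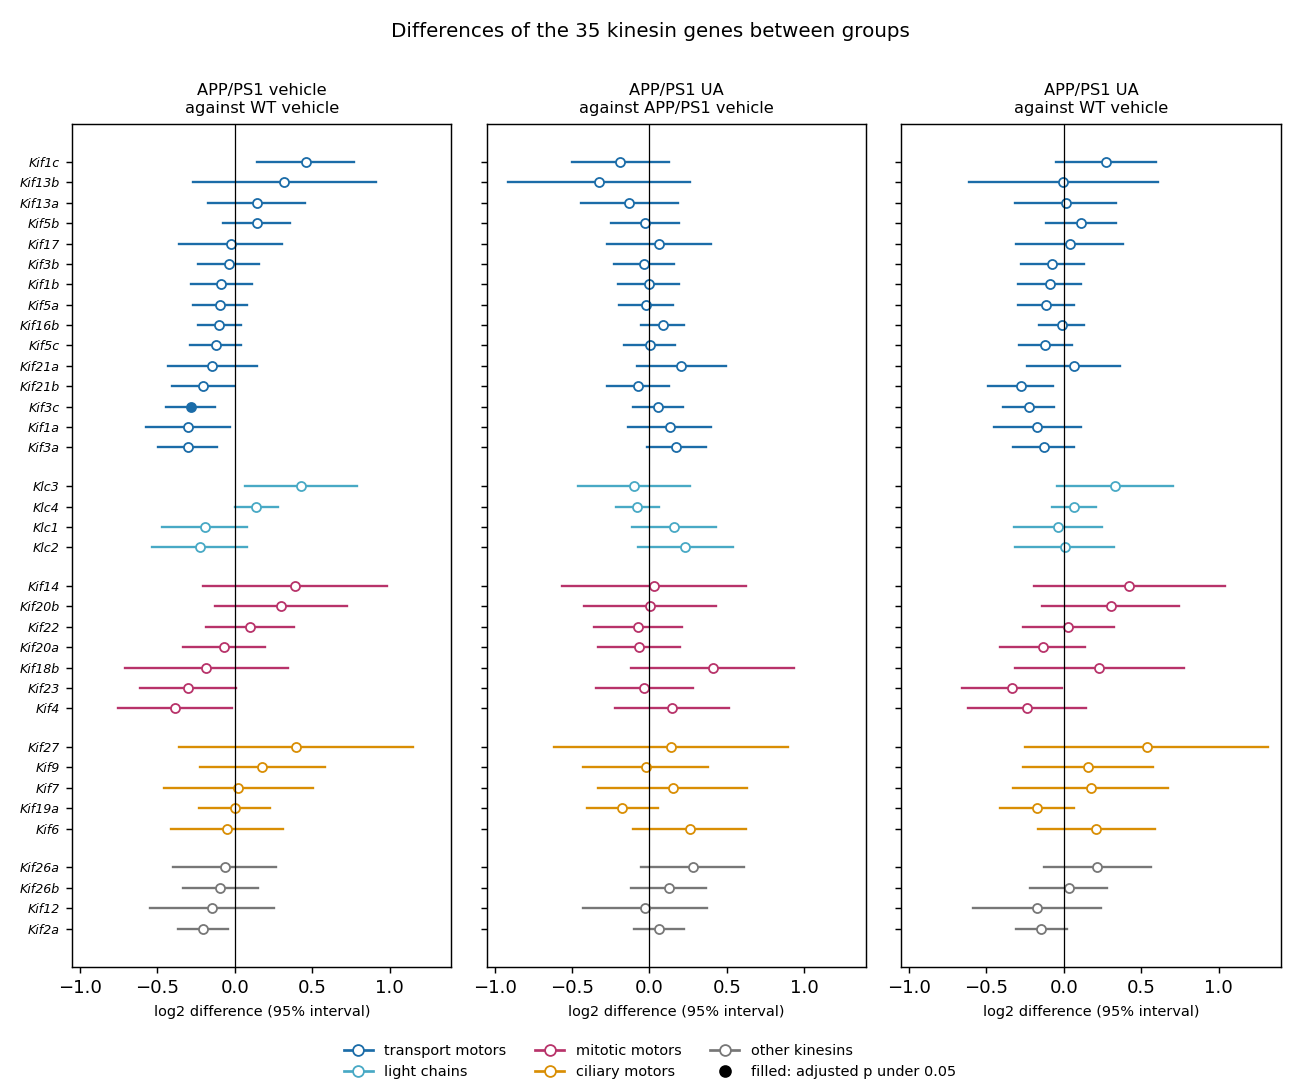
Log2 difference with its 95% interval (x axis) of each of the 35 kinesin genes (y axis), by role, in the 3 comparisons from 1 limma fit. The 1 filled point, Kif3c at -0.28 in APP/PS1 vehicle against WT vehicle, is the only adjusted p under 0.05, and the widest interval in that comparison belongs to the ciliary motor Kif27.

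Most variation of several kinesins ran between arrays within a group, along with markers of cell types. Each member's level was set against the mean level of 7 marker lists over the 19 arrays, 245 relations in all, and 27 relations of 14 members had a permutation p for Pearson's r under 0.05 after Benjamini-Hochberg adjustment over the 245. Both sides share each array's scaling. Kif2a passed with the ependymal (r = -0.63), oligodendrocyte (-0.63) and astrocyte (-0.62) lists. Kif17 passed with the ependymal list (0.70, but 0.23 without the 2 arrays farthest from the list median) and Kif1c with the astrocyte list (0.62). By rank only Kif2a with the ependymal list passed among these, and the other relations are described below. Choroid plexus markers were left out of these tests because they fell into separate clusters, so r there sets low arrays against high ones. Their r, not tested, was 0.89 with Kif9, 0.88 with Kif27, 0.82 with Kif1c, 0.79 with Kif13a and 0.78 with Kif13b. It was -0.71 with Kif2a and -0.70 with Kif22. Relations to the ependymal list given below were not told apart from relations to the choroid plexus markers.

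Kif13b, a kinesin-3 motor known to act in myelinating cells, followed the oligodendrocyte markers most closely. Its level ran from 0.80 to 1.94 in WT, from 0.56 to 2.25 in APP/PS1 vehicle and from 0.47 to 1.83 in UA mice, so each group held low and high arrays. Pearson's r with the oligodendrocyte list was 0.95 and Spearman's rho 0.87 (n = 19, permutation p = 1e-05 for both, the smallest the permutations can give, adjusted p = 0.000612 and 0.000817). Without the 2 arrays farthest from the median r was 0.94, within groups it was 0.96, and within groups and slides 0.97. Split at the widest gap between oligodendrocyte levels that left at least 6 arrays on each side, r was 0.79 over the 12 arrays below it and 0.69 over the 7 above it. Kif5b gave r = 0.73 and rho = 0.71 with the same list (permutation p = 0.00032 and 8e-04, adjusted p = 0.00653 and 0.0151) and 0.71 without the 2 farthest arrays, with 0.45 below and -0.14 above the gap. With the ependymal list it gave r = 0.64 (permutation p = 0.00316, adjusted p = 0.0407), 0.65 on either side of the widest gap there, and rho = 0.58 (permutation p = 0.0114, adjusted p = 0.0797).

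Kif9, a motor of motile cilia, followed the ependymal markers with r = 0.91 and rho = 0.94 (n = 19, permutation p = 1e-05 for both, adjusted p = 0.000612 and 0.000817). It was 0.92 without the 2 farthest arrays, 0.91 within groups and 0.89 within groups and slides. Kif27, also of motile cilia, gave r = 0.84 and rho = 0.77 (permutation p = 2e-05 and 0.00028, adjusted p = 0.00098 and 0.0098), and 0.75 without the 2 farthest arrays. It was well above background on 14 of the 19 arrays. The ciliary motors did not all follow this list. Kif19a gave r = -0.29 and Kif7 -0.19, neither passing the adjustment. Kif6 gave r = 0.72 (permutation p = 0.00061, adjusted p = 0.0115) but 0.4 without the 2 farthest arrays. The transport motor Kif13a gave r = 0.88 and rho = 0.84 with the ependymal list (permutation p = 1e-05 and 5e-05, adjusted p = 0.000612 and 0.00204) and 0.83 without those arrays, and it gave r = 0.82 and rho = 0.74 with the oligodendrocyte list (permutation p = 3e-05 and 0.00037, adjusted p = 0.00105 and 0.0101). Kif9, Kif27 and Kif13b also had relations to both lists, with r = 0.70 and 0.63 for Kif9 and Kif27 with the oligodendrocyte and 0.78 for Kif13b with the ependymal list. By rank Kif9 and Kif27 did not pass with the oligodendrocyte list, with rho = 0.61 and 0.46 (permutation test, adjusted p = 0.0717 and 0.168). Below the gap in oligodendrocyte levels r was 0.07 for Kif9, 0.3 for Kif27 and 0.24 for Kif13a. Above it r was 0.75, 0.6 and 0.71. Kif13b gave 0.25 below and 0.91 above the gap of the ependymal list. Kif1c gave r = 0.78 and rho = 0.85 (permutation p = 0.00012 and 4e-05, adjusted p = 0.00327 and 0.00196), 0.89 without the 2 farthest arrays and 0.86 within groups, but -0.02 over the 7 arrays below and 0.86 over the 12 above the widest gap in ependymal levels. Kif1c ran against the neuron markers, with r = -0.74 and rho = -0.75 (permutation p = 0.00029 and 0.00032, adjusted p = 0.00646 and 0.0098), -0.59 without the 2 farthest arrays and -0.58 within groups. The ependymal list averaged -0.51 ± 0.81 (SD) in WT and -0.14 ± 1.34 in APP/PS1 vehicle mice, and the neuron list 5.68 ± 0.10 and 5.43 ± 0.14. The part of either, or of the choroid plexus markers, in the difference of Kif1c between the groups was not tested.

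Kif3c followed the neuron markers, with r = 0.84 and rho = 0.83 (n = 19, permutation p = 3e-05 and 2e-05, adjusted p = 0.00105 and 0.00122). The value was 0.74 without the 2 farthest arrays, 0.72 within groups and 0.78 within groups and slides. Kif3a gave 0.59 over all arrays (permutation p = 0.00925, adjusted p = 0.0592) with rho = 0.67 (permutation p = 0.00214, adjusted p = 0.035), 0.55 without the 2 farthest arrays and 0.26 within groups. Kif3a also ran against the astrocyte markers, with r = -0.67 and rho = -0.64 (permutation test, adjusted p = 0.0281 and 0.0493). Within groups that r was -0.37. Kif3c gave r = -0.65 with the microglia and -0.61 with the astrocyte markers (permutation test, adjusted p = 0.0301 and 0.0457). Within groups these were -0.01 and 0.19, and by rank neither passed the adjustment. The part of the neuron, microglia or astrocyte marker shifts in the differences of Kif3c and Kif3a between WT and APP/PS1 vehicle mice was not tested.

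No mitotic motor had a relation to the dividing-cell markers that passed the adjustment. Kif4, seen on 10 arrays, ran against the endothelial markers, with r = -0.71 and rho = -0.74 (permutation test, adjusted p = 0.0133 and 0.0127). With the ependymal list Kif4 gave r = -0.63 and Kif18b r = 0.69 (permutation test, adjusted p = 0.0447 and 0.0408). By rank neither passed with that list, and Kif18b gave 0.31 without the 2 farthest arrays. Kif22 ran against both the ependymal and the oligodendrocyte markers. With the ependymal list it gave r = -0.78 and rho = -0.69 (n = 19, permutation p = 0.00021 and 0.0014, adjusted p = 0.00514 and 0.0245), -0.74 without the 2 farthest arrays, -0.83 within groups, and -0.75 below and -0.78 above the widest gap. With the oligodendrocyte list it gave r = -0.75 and rho = -0.73 (n = 19, permutation p = 1e-05 and 0.00057, adjusted p = 0.000612 and 0.0127), -0.73 without the 2 farthest arrays and -0.82 within groups. Below and above the gap in the oligodendrocyte levels it was -0.66 and -0.53. Its highest array was APP/PS1 vehicle replicate 3 at 0.45, the array with the lowest levels of the oligodendrocyte (2.34), ependymal (-2.74) and choroid plexus (-4.59) lists.

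**Figure D4:**
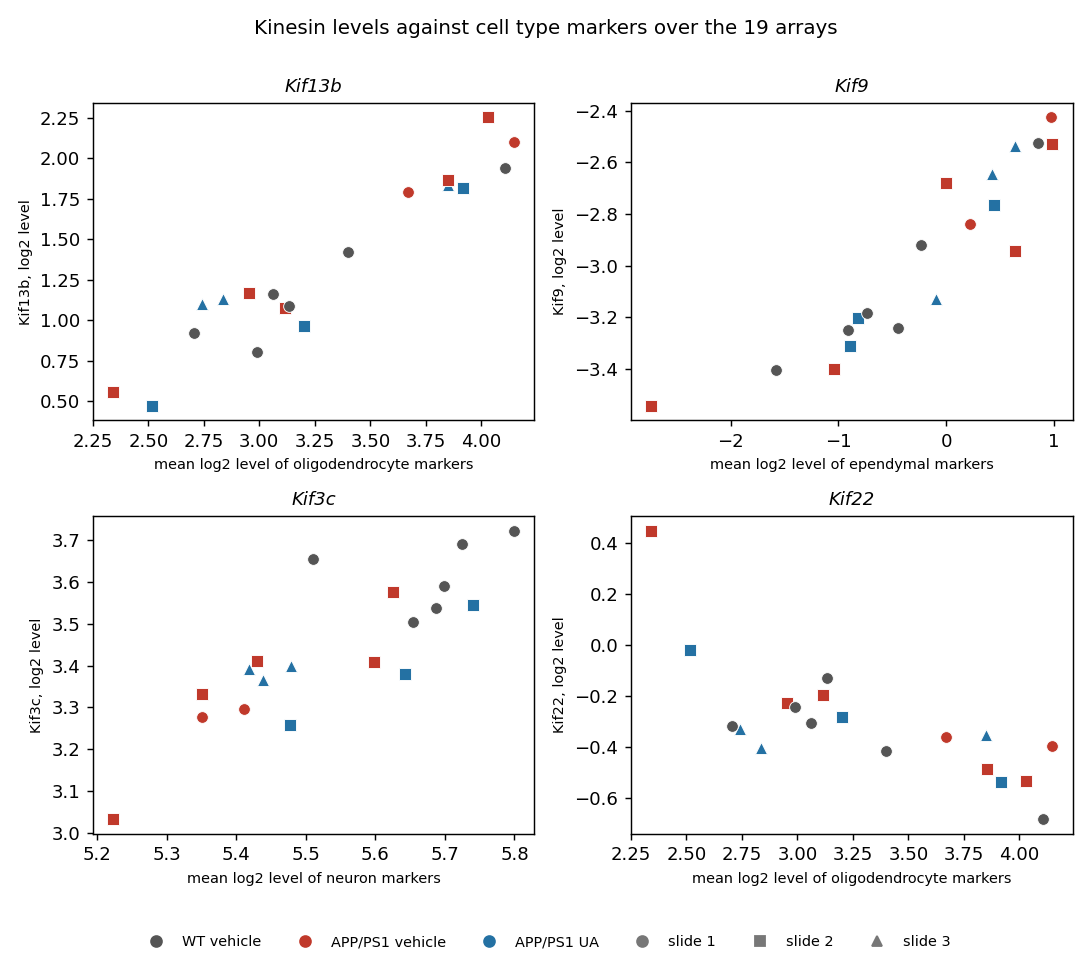
Level of 4 kinesin genes (y axis, log2) against the mean log2 level of a marker list (x axis) on the 19 arrays, with colour for the group and shape for the slide. Kif13b rises with oligodendrocyte markers (r = 0.95), Kif9 with ependymal markers (r = 0.91) and Kif3c with neuron markers (r = 0.84), while Kif22 falls as oligodendrocyte markers rise (r = -0.75).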

How the data were processed

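Hippocampal RNA of 19 mice was measured on Agilent arrays, 1 array per sample. The series' design text counts as many mice per group as there are arrays, so each array stands for a mouse. Per the file headers, spot intensity was read with Agilent Feature Extraction 12.0.3.1, and the processed green intensity is background-subtracted and dye-normalized. Per the labels' protocols, Cy3 cRNA came from 200 ng of RNA, and no red sample is described. The deposited values are a score for each spot that equals the centred, scaled log10 of that intensity to within 0.005.

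Control and non-uniform spots were left out, spots of a probe were averaged, and log2 intensity minus the array's 75th percentile was used. Probes well above background on at least 6 arrays were kept, and the brightest stood for a gene. Accessions were named through RefSeq genes of assembly GRCm38.p6, giving 32994 probes with a symbol. R 4.3.3, limma 3.58.1 (lmFit, eBayes) fitted all 19 arrays, with 2-sided tests and Benjamini-Hochberg adjustment over 25599 genes. Fold changes are ratios of geometric means. Relations to marker lists used 100000 permutations with numpy 2.4.6 under Python 3.11.15, 2-sided, and figures matplotlib 3.10.9. Of several promoter windows of a gene, the one of lowest coordinate was used. The fit was tested on simulated data. The number of arrays limits the precision.

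All members may be named. Values on the arrays are given for each member called and, where a comparison called none, for the 3 of smallest p; other members are named by role. Up to 4 called genes by p, or the one of smallest p, are named from a pathway list. The members and lists were chosen with earlier results of these data known. Alternatives were normexp background correction with an offset of 50, other scalings, the deposited table, other filters, the mean of probes, slide, sex, replicate number, only the groups compared, and leaving out arrays. The design assumed mean signals for normexp, and median signals, which the files hold, were used.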

Additional observations from a re-analysis of the deposited data

Results flagged for a closer look

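Among 105 sets of 6 or 7 arrays, 1 for each member and group, 12 had a lowest or highest array separated from the rest by more than Dixon's 95% limit, where chance alone gives about 1 in 20. The transport and light chain genes with such an array were Kif3a (WT replicate 3 at 3.58, the next lowest at 4.01), Kif17 (WT replicate 1 at 0.30), Kif21a (WT replicate 1 at 2.02), Kif5c (WT replicate 2 at 5.47), Kif5a (UA replicate 6 at 8.22) and Klc1 (WT replicate 1 at 3.69). Among the mitotic motors Kif14 had a low array in WT (replicate 3 at -5.64) and a high one in APP/PS1 vehicle mice (replicate 1 at -2.87). Kif20b had a high array in UA mice, replicate 2 at -4.28. WT replicate 1 was set apart for 3 genes, as the lowest array for Kif17, Kif21a and Klc1. APP/PS1 vehicle replicate 3 was also set apart for 3 genes: it was lowest for Kif18b (-5.98) and for the ciliary motor Kif27 (-6.21), and highest for Kif22 (0.45). On that array 51.4% of probes were well above background, the lowest share of the 19.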

How the results depend on the processing

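The count of kinesins called in APP/PS1 vehicle against WT vehicle, 1 in the report, was 0 with quantile normalization, no filter, the mean of kept probes, slide as a block, within slide 1, or only the groups compared. It was 2 with probes well above background on all arrays, with slide as a random block and with sex as a covariate. Leaving out 1 array gave 0 to 4, with 4 without WT replicate 3 and without APP/PS1 vehicle replicate 5, 2 without APP/PS1 vehicle replicate 3, and 0 without 9 others. Kif3c was below 0 in all 25 alternatives on the same scale, from -0.34 to -0.10, Kif3a from -0.46 to -0.27 and Kif1c above 0 from 0.21 to 0.68. With replicate number as a replicate block the count was 0, but arrays of the same number did not deviate together (correlations from -0.546 to 0.39), so numbers did not pair arrays. In both UA comparisons the count was 0 in every alternative run; normexp turned Kif18b in UA against vehicle to -0.11. In APP/PS1 vehicle against WT, 19 of 35 members kept their sign in every alternative on this scale and 16 turned in some: Kif17 in 7 (to 0.10), Kif3b (to 0.01) and Kif5a (0.08) in 3, Kif5c (0.03) in 2, Kif21b (0.14), Klc1 (0.15), Kif23 (0.04), Kif4 (0.08) and Kif20a (0.04) in 1, and 7 others. In UA against vehicle and UA against WT, 15 and 20 members kept their sign.

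Over all genes, the APP/PS1 vehicle against WT count of 1296 became 1979 with normexp, 804 with deposited values, 352 with no filter, 75 with slide as a block, 2228 as a random block, 23 within slide 1, 331 with the replicate block, 1986 with sex and 426 with only the groups compared. UA against vehicle went from 0 to 1836 with normexp. UA against WT went from 23 to 15 with normexp, 42 with probes on all arrays, 4 with slide as a block, 99 as a random block and 12 with the replicate block. With normexp the median of the 35 kinesins in APP/PS1 vehicle against WT was 0.06, against 0.08 over all genes. The causes were not tested.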
